A study of Mus musculus with 5 samples.

Results

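The genes described here are Myc, Mycn, Mycl, Max, Mxd1, Mxd3, Mxd4, Mxi1, Mnt and Mlx, the core of the Myc, Max and Mxd network of transcription factors. They were found by symbol through the gene identifiers of the count table, and all 10 were among its 52550 genes. Expression was measured by 3′ RNA sequencing (Quant-seq), which reads the end of each polyadenylated transcript, in KL (cKit+Sca1-Lin-) cells, the sorted bone marrow population that holds committed myeloid progenitors. The BcorΔE9-10 libraries (n = 3) came from mice labelled scl-Cre-ERT +; Bcorfl/y and the BcorWT libraries (n = 2) from mice labelled scl-Cre-ERT +; Bcorwt/y. Both groups therefore carried the same tamoxifen-inducible Cre, driven by a stem cell element of the Scl (Tal1) gene, and both received tamoxifen. Mice of 3 to 6 months were injected with 1 mg per day for 5 days, and cells were collected 20 weeks later. In Bcorfl/y mice Cre removes exons 9 and 10 of Bcor, the X-linked gene of a subunit of a variant Polycomb repressive complex, in stem cells, so KL cells carry the deletion by descent and any cell that escaped recombination remains in the sample.

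Myc is a basic helix-loop-helix leucine zipper protein that binds DNA as a dimer with Max and raises transcription of genes for ribosome assembly, nucleotide synthesis and cell growth. The Mxd proteins, Mxi1 and Mnt also need Max, and their dimers recruit Sin3 and histone deacetylases to the same E-box sequence, CACGTG. Mlx is a relative of Max that pairs with some Mxd proteins and with the glucose-responsive factors Mlxip and Mlxipl. In the myeloid lineage, Myc is typical of dividing progenitors, and Mxd1 of cells that leave the cycle to mature.

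The core E-box reads the same on both strands and was searched in RefSeq promoter windows (build GRCm38.p6) that run from 250 bases before to 50 bases after a transcript start. Of the 10 genes, 9 were matched to a window, all but Myc. Max, Mlx, Mnt and Mxd4 held 1 CACGTG each, 4 of 9 matched genes (44.4%), against 8.09% of 27025 genes with a window. Their windows are shown because these genes of the network carry the letters that the network itself binds, with CACGTG in capitals and all other bases in lower case. The match is a description of sequence, and binding was not measured here.
Mlx (chr11:101087040-101087339, plus strand): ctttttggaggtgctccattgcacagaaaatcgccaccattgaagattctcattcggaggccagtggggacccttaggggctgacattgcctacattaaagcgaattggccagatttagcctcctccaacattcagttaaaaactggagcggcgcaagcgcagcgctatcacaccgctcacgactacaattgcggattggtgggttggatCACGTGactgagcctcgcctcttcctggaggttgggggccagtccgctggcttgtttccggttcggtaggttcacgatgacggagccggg
Max (chr12:76962199-76962498, minus strand): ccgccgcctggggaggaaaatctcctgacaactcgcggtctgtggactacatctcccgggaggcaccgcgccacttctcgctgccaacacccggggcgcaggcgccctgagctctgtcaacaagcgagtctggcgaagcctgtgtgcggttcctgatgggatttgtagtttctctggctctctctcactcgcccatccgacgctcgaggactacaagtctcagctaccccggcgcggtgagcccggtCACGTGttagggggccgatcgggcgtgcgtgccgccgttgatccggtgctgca
Mnt (chr11:74830674-74830973, plus strand): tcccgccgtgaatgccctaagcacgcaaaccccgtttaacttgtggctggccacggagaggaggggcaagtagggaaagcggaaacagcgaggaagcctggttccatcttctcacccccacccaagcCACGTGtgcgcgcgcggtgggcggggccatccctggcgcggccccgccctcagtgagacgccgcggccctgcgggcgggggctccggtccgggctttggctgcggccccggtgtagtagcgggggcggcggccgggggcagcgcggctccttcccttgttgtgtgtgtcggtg
Mxd4 (chr5:34187661-34187960, minus strand): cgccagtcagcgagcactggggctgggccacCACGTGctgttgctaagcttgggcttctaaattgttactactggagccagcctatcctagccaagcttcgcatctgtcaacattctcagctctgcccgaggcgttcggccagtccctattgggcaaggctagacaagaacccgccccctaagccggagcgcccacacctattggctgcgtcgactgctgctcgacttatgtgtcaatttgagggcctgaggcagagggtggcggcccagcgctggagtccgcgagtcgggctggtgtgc
The first base of the motif lay 40 bases before the start of Mlx, 3 bases before that of Max, 123 before that of Mnt and 219 before that of Mxd4. Of these 4 genes, Mlx alone differed between the genotypes beyond the threshold, as described next.

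Total counts per library ranged from 5998924 to 8303999. Levels are CPM, counts scaled to a library total of 1e+06 after TMM normalisation. Differences between genotypes are log2 fold changes, positive where BcorΔE9-10 was higher, from limma on voom values, and were called at a Benjamini-Hochberg adjusted p-value under 0.05 over all 11766 genes tested. Of these genes 10.1% were called, 6.02% higher and 4.09% lower, and the CPM ranges of the groups did not overlap for 42.8%. KL cell genes such as Mpo, Elane and Ms4a3 were present in all 5 libraries. The 9 KL cell markers listed summed to between 6963 and 8310 CPM per library. The 12 mature neutrophil markers summed to between 150000 and 229300 CPM. Kit itself, on which the cells were sorted, was higher in BcorΔE9-10, with a log2 difference of 1.43 (SE 0.173, limma adjusted p = 9.82e-05). Bcor was higher too (0.78, limma adjusted p = 0.0313), but its transcript end does not read the removed exons, so this value does not check the labels. In these bulk samples fewer cells of a type and less RNA per cell cannot be told apart.

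Of the 10 network genes 8 had enough counts to be tested. Myc and Mlx were higher in BcorΔE9-10 and Mxd1 was lower, while Max, Mxd3, Mxd4, Mxi1 and Mnt did not pass the threshold. This made 3 called of 8 tested, 2 higher and 1 lower, at a background of 10.1%, and the median log2 fold change of the 8 was 0.04. The groups did not overlap for 4 of the 8, Mxi1 in addition to the called genes, at a background of 42.8%.

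Myc (chromosome 15, 61985391 to 61990374, plus strand) was read 113, 98 and 81 times in BcorΔE9-10 cells, and 16 and 19 times in BcorWT cells. These counts were 13.4, 16.0 and 9.47 CPM against 2.27 and 2.82 CPM. Every BcorΔE9-10 library lay well above both BcorWT libraries, and the lowest of them was more than the sum of the BcorWT values. Mean Myc rose to 12.9 ± 3.28 CPM (SD, n = 3) in BcorΔE9-10 over 2.54 ± 0.384 CPM (SD, n = 2) in BcorWT, with a fitted fold of 4.80 from limma, which need not equal the ratio of the means (log2 fold change 2.26, SE 0.446, 95% interval 1.32 to 3.21, limma adjusted p = 0.00401). The value was smallest after the GC content of transcript ends was corrected for, at 1.76 (limma adjusted p = 0.0175), with 20.3% GC in the last 300 bases of Myc. None of the 30-base words in those bases occurred in a transcript of another gene. Each of these values rests on 16 to 113 counts, so the interval of the fold change is wide.

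The other genes of the Myc family were barely detected. Mycn, which is used in stem cells and embryonic tissue, had 17, 2 and 7 counts in BcorΔE9-10 and 3 and 1 in BcorWT. Mycl had 5, 2 and 1 against 4 and 2 counts. Neither passed the expression filter, and both sets of counts overlapped between the genotypes. Without a filter the log2 fold change was 1.53 for Mycn (limma adjusted p = 0.412) and -0.44 for Mycl (limma adjusted p = 0.844). A difference in either was not detectable at this depth. Pvt1, the long noncoding RNA gene that lies beside Myc, had 4, 6 and 6 counts against 0 and 3, too few to test.

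Max, the obligate partner of Myc, had 211, 217 and 208 CPM in the BcorΔE9-10 libraries and 246.5 and 205 CPM in the BcorWT libraries. The BcorΔE9-10 values fell between the BcorWT values. The log2 fold change was -0.09 (95% interval -0.33 to 0.15, limma adjusted p = 0.673), so a change in Max of the size seen for Mxd1 lies outside the interval. Counts of Myc per 1000 counts of Max, a ratio within a library that scaling does not touch, were 63.4, 73.7 and 45.5 in BcorΔE9-10 and 9.22 and 13.7 in BcorWT. Max itself differed little, so the order of the libraries in this ratio is that of Myc.

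**Figure D1:**
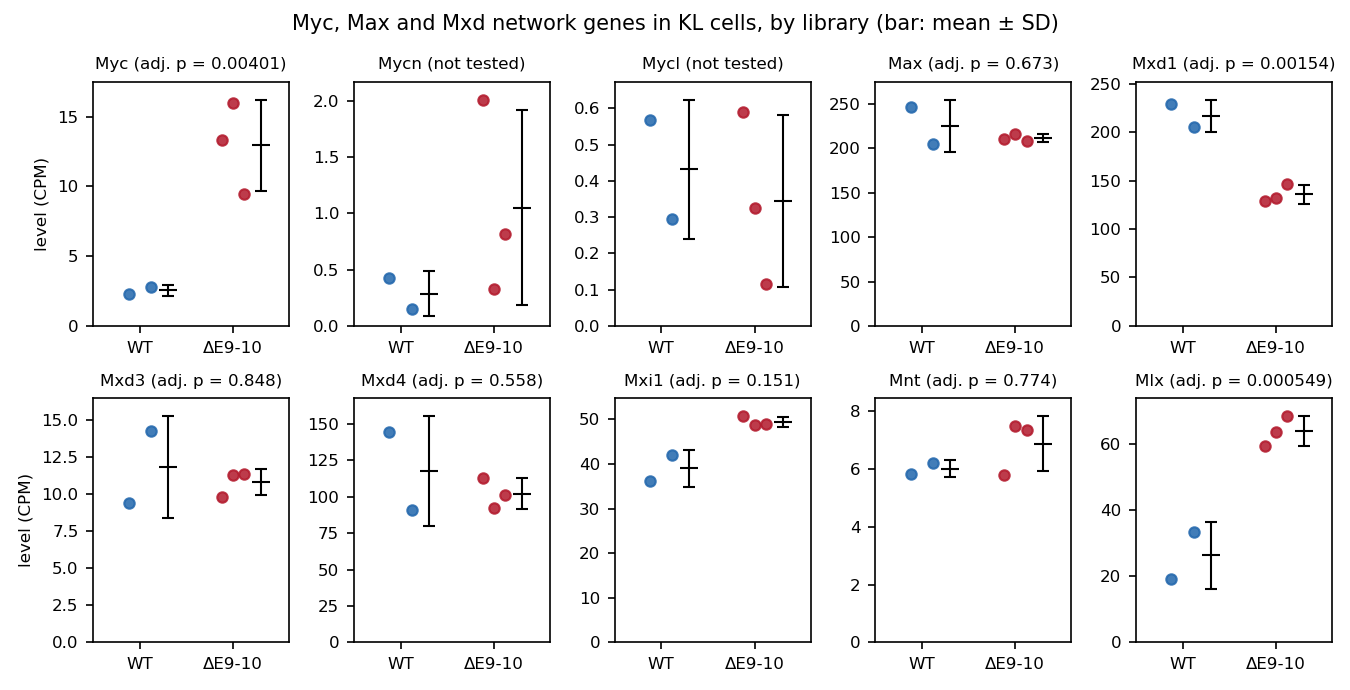
Level of each network gene in CPM (linear axis from 0) in the 2 BcorWT (blue) and 3 BcorΔE9-10 (red) libraries, with the mean and SD in black and the limma adjusted p-value above each panel. Myc and Mlx are higher and Mxd1 lower in every BcorΔE9-10 library, whereas the values of Max, Mxd3, Mxd4 and Mnt overlap.

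Mxd1, which competes with Myc for Max and rises when granulocytes mature, was the called gene that fell. Its level was 128.5, 132 and 147 CPM in the BcorΔE9-10 libraries and 229 and 205 CPM in the BcorWT libraries. The highest BcorΔE9-10 value was below the lowest BcorWT value. Mean Mxd1 was 136 ± 9.85 CPM (SD, n = 3) in BcorΔE9-10 and 217 ± 16.7 CPM (SD, n = 2) in BcorWT, which gave a log2 difference of -0.68 (SE 0.115, 95% interval -0.92 to -0.43, limma adjusted p = 0.00154). Mxd1 (chromosome 6, 86647042 to 86669161, minus strand) holds within its bounds, on its own strand and with no exon in common, the unclassified transcript Gm44292 (86663188 to 86665551). Gm44292, named here after its values were seen, had 52.7, 40.0 and 67.1 CPM against 136 and 82.8 CPM, a log2 difference of -1.01 (limma adjusted p = 0.00489). Both transcripts of the locus were thus lower in BcorΔE9-10.

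Counts of Myc per 1000 counts of Mxd1 were 104, 121 and 64.4 in BcorΔE9-10 and 9.93 and 13.7 in BcorWT. On the log2 scale the ratio ran from -3.96 to -3.04 in BcorΔE9-10 and from -6.65 to -6.19 in BcorWT. The rise of Myc and the fall of Mxd1 both enter this ratio, so it adds no evidence to the tests of the single genes.

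Several markers of mature neutrophils were lower, as Mxd1 was. Of 12 such genes, all tested, 7 were lower and none higher in BcorΔE9-10, where 4.09% of all genes were lower, and their summed level was 173900, 161400 and 150000 CPM against 229300 and 216700 CPM. S100a8, a calcium-binding protein of neutrophils, and Ltf, the lactoferrin of their secondary granules, fell by 0.61 and 0.82 on the log2 scale. The 2 markers above 0 were Camp, another granule protein, at 0.25 (limma adjusted p = 0.114), and Itgam, the gene of CD11b. Itgam was at 0.37 (limma adjusted p = 0.0618). Of 13 basophil, mast cell and eosinophil markers, 9 of the 11 tested were lower, at the same background of 4.09%, with a summed level of 608, 435 and 531 CPM against 1413 and 1101 CPM. Of 8 monocyte and macrophage markers, 2 of the 7 tested were lower, Ly6c2 and Fcgr4 (28.6%, at the same background). They lost their calls in 6 and 5 of the 16 alternative fits, total counts alone among them, but kept their sign. Ccl6 gained a call in 3 fits and Ccr2 in 1. The sort took lineage-negative cells, a gate that leaves out cells bearing the granulocyte and monocyte antigens CD11b and Gr-1. The part of these cells in the fall of Mxd1 was not tested.

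The summed level of erythroid markers was 128.5, 196 and 327 CPM in BcorΔE9-10 and 70.6 and 117 CPM in BcorWT. Of 13 markers 8 were tested and 1, Car1 (carbonic anhydrase 1), was called higher by limma (12.5%, at a background of 6.02%), against 5 by edgeR and 2 by DESeq2. All 8 had a log2 fold change above 0, with a median of 1.65 against 0.00 for all genes. An unadjusted p-value under 0.05 was found for 7 (87.5%), against 25.3% of all genes. Car1 lost its call in 6 of 16 alternative fits, among them those without BcorΔE9-10 library 2 or 3 or either BcorWT library, while Car2 and 4 globin genes were each called in 5 or 6 of the 16. Klf1, a defining regulator of erythroid cells, had at most 10 counts in any library, and Slc4a1, the anion exchanger of red cells, was at 0 in both BcorWT libraries. B cell markers summed to between 41.5 and 69.9 CPM, megakaryocyte markers to between 27.3 and 72.1 CPM, T and NK cell markers to between 133 and 192 CPM and dendritic cell markers to between 98.1 and 125 CPM, and limma called none of them. In the same order, the median log2 fold changes were 1.15, 0.33, 0.56 and 0.10, with 6 of 7, 4 of 6, 2 of 4 and 4 of 7 tested genes above 0. At an unadjusted p-value under 0.05 there were 1, 1, 3 and 0 of these, against 25.3% of all genes. Of the 3 T and NK cell genes, Klrd1 and Ncr1 were higher and Nkg7 lower. Ighm alone held 33.3 to 48.1 CPM of the B cell sum, and Nkg7 122 to 184 CPM of the T and NK cell sum. Neither edgeR nor DESeq2 called any of these genes. Other alternative fits called Pf4 (3 of 16), Flt3 (2 of the 15 that tested it), Itga2b and Itgax (1 of 16 each). The lineage-negative gate also leaves out cells with the erythroid antigen Ter-119, B220 of B cells and CD5 of T cells. The part of these cells in the rise of Myc was not tested.

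The other partners of Max that act as repressors did not pass the threshold. Mxi1, also known as Mxd2, was at 50.7, 48.8 and 48.9 CPM in BcorΔE9-10 and 36.1 and 41.9 CPM in BcorWT. All 3 BcorΔE9-10 values were above both BcorWT values, but the log2 fold change of 0.35 (95% interval 0.04 to 0.66) had a limma adjusted p-value of 0.151. With total counts alone as the scaling, which shifted the median of all genes from 0.00 to 0.15, it was 0.49 (limma adjusted p = 0.0484). Ranges that do not overlap were found for 42.8% of all genes tested, and Mxi1 did not pass the threshold in the reported fit.

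Mxd4, a repressor found in resting and differentiated cells, had 113, 92.0 and 101 CPM against 144 and 91.1 CPM. Here the BcorWT libraries differed from each other by more than the group means did. Its log2 fold change was -0.17 (limma adjusted p = 0.558), and it was -0.49 with a call (limma adjusted p = 0.0357) without BcorWT library 2 and 0.16 with no call without BcorWT library 1. The direction for Mxd4 thus rested on a single control library.

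Mxd3, which is expressed in S phase, had 9.81, 11.3 and 11.3 CPM against 9.37 and 14.2 CPM (log2 fold change -0.10, 95% interval -0.63 to 0.43, limma adjusted p = 0.848). One of its exons overlaps an exon of Prelid1 on the other strand, a gene with 1388 to 2158 counts per library, although the end of its longest transcript does not. Mnt, the widely expressed antagonist of Myc, had 5.79, 7.51 and 7.36 CPM against 5.82 and 6.22 CPM (log2 fold change 0.17, 95% interval -0.47 to 0.81, limma adjusted p = 0.774). With 41 to 97 counts per library for these genes, the intervals allow changes in either direction.

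Mlx had the lowest adjusted p-value of the 8 genes tested. Its level was 59.3, 63.5 and 68.4 CPM in the BcorΔE9-10 libraries and 19.2 and 33.5 CPM in the BcorWT libraries. The BcorΔE9-10 libraries lay close together and above both BcorWT libraries, which were themselves apart. Mean Mlx was 63.7 ± 4.52 CPM (SD, n = 3) in BcorΔE9-10 and 26.3 ± 10.1 CPM (SD, n = 2) in BcorWT, with a fitted fold of 2.52 (log2 fold change 1.33, SE 0.198, 95% interval 0.91 to 1.75, limma adjusted p = 0.000549). Without BcorWT library 1, the lower control, it was 0.92 (limma adjusted p = 0.00756). Counts of Mlx per 1000 counts of Max were 282, 293 and 328 in BcorΔE9-10 and 77.8 and 163 in BcorWT.

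The end of Mlx (chromosome 11, 101087277 to 101092207, plus strand) runs into Psmc3ip, a gene on the other strand (101091823 to 101095436). All of the 271 words of 30 bases in the last 300 bases of the longest Mlx transcript also occur in Psmc3ip transcripts on the other strand. Psmc3ip itself had 112, 73 and 113 counts in BcorΔE9-10 and 67 and 66 in BcorWT, a log2 difference of 0.41 (limma adjusted p = 0.299). Whether strand was used in counting is not given in the sources used here, so reads of Mlx and Psmc3ip may not have been told apart, and the part of this overlap in the rise of Mlx was not tested. None of the other 9 network genes shared a 30-base word of the end of its longest transcript with the transcripts of another gene.

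**Figure D2:**
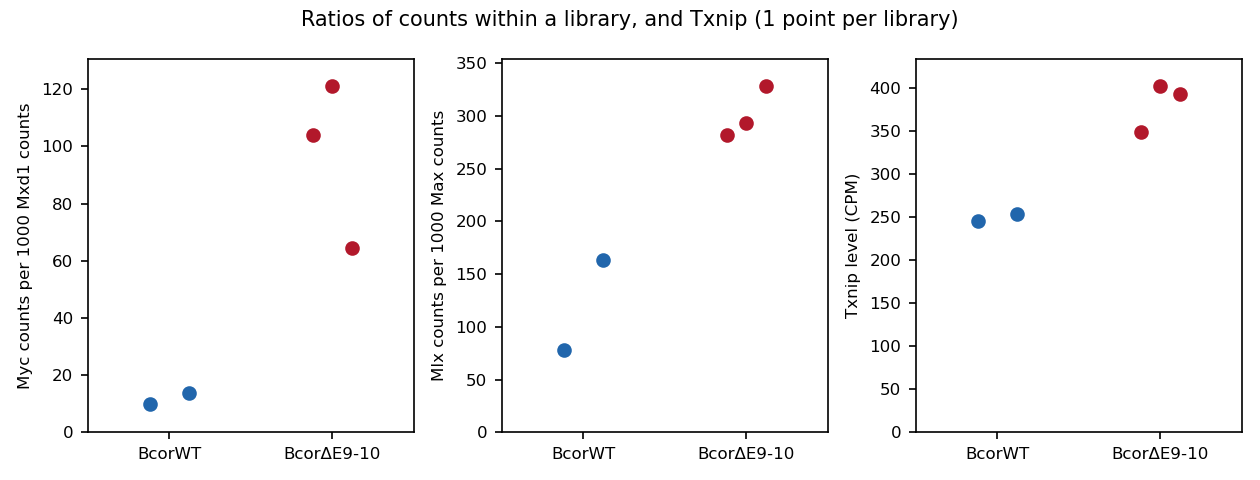
Counts of Myc per 1000 counts of Mxd1, counts of Mlx per 1000 counts of Max and level of Txnip in CPM, with 1 point per library on linear axes from 0 (BcorWT blue, BcorΔE9-10 red). The 3 BcorΔE9-10 libraries lie above both BcorWT libraries in each panel.

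The partners of Mlx were measured next. Mlxip, which holds Mlx in the cytoplasm until glucose metabolites rise, was at 10.6, 11.7 and 12.3 CPM against 12.2 and 10.1 CPM (log2 fold change 0.05, limma adjusted p = 0.923). Mlxipl, its relative in liver, had at most 2 counts in any library, as did Tcfl5, a helix-loop-helix gene on the same list. Mga, a large protein that pairs with Max in a Polycomb-type complex, was at 17.0, 18.6 and 16.0 CPM against 16.3 and 9.48 CPM (log2 fold change 0.45, limma adjusted p = 0.272). No partner outside the 10 genes was thus called by limma, and neither edgeR nor DESeq2 called any, with 0 at an unadjusted p-value under 0.05.

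Txnip and Arrdc4, arrestin-domain genes that limit glucose uptake, are the best known targets of the Mlxip and Mlx dimer. Txnip was at 349, 402 and 394 CPM in BcorΔE9-10 and 246 and 253.5 CPM in BcorWT. All BcorΔE9-10 libraries were above both BcorWT libraries, and the controls lay close together. Mean Txnip rose to 382 ± 28.6 CPM (SD, n = 3) in BcorΔE9-10 over 250 ± 5.35 CPM (SD, n = 2) in BcorWT, with a fitted fold of 1.52 (log2 fold change 0.61, SE 0.107, limma adjusted p = 0.00208). The call held in all 16 alternative fits, with values from 0.51 to 0.75. Arrdc4 had 19 to 27 counts per library and a log2 difference of 0.12 (95% interval -0.78 to 1.01, limma adjusted p = 0.901).

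Of 35 genes on 5 lists of partners, targets of Mlx, coactivators, corepressors and turnover factors, 33 were tested and 2 were called, Txnip and Sap30, both higher. This was 6.06% of those tested, at a background of 10.1%, and the median log2 fold change was 0.05 against 0.00 for all genes. Sap30, a subunit of the Sin3 histone deacetylase complex that Mxd proteins recruit, rose from 4.69 and 2.82 CPM in BcorWT to 11.5, 14.5 and 14.3 CPM in BcorΔE9-10. Its log2 fold change was 1.84 (SE 0.358, limma adjusted p = 0.00379), and the call held in all 16 alternative fits. The other subunits on that list, Sin3a, Sin3b, Hdac1, Hdac2, Sap18 and the corepressor Ncor1, lay between -0.26 and 0.36 and were not called. Of 9 coactivators, among them Trrap, Kat5 and Ep400, limma called none and neither did edgeR or DESeq2, with 1 (Ruvbl2, 1.05) at an unadjusted p-value under 0.05. With GC correction, with or without the replicate block, limma called 1 coactivator, Actl6a, which was at -0.25 (limma adjusted p = 0.217) in the reported fit. Of 13 factors that bind Myc or control its turnover, such as the ubiquitin ligase subunit Fbxw7, none was called by the 3 tools and 0 had an unadjusted p-value under 0.05.

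**Figure D3:**
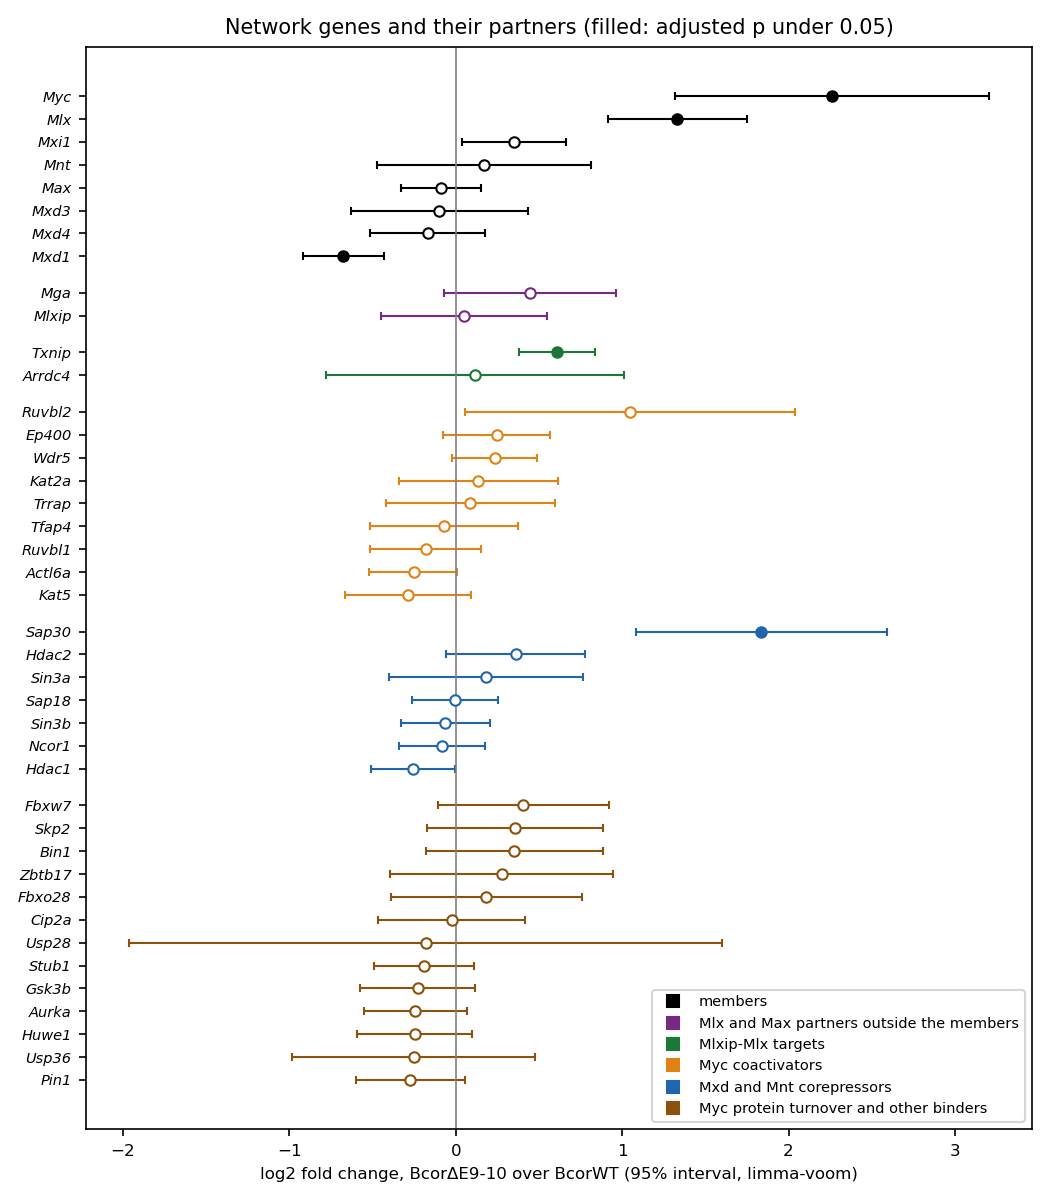
Log2 fold change of BcorΔE9-10 over BcorWT with its 95% interval for the 8 tested network genes and the 33 tested genes of the 5 related lists, coloured by list; filled points passed an adjusted p-value under 0.05. Myc, Mlx, Txnip and Sap30 lie to the right and Mxd1 to the left.

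Genes that Myc is known to activate were then counted. Of 55 such genes 52 were tested, and 3 were higher and 2 lower in BcorΔE9-10. These are 5.77% and 3.85% of those tested, at a background of 6.02% and 4.09%. Their median log2 fold change was -0.17, against 0.00 over all genes tested, with 15 above 0 and 37 below. At an unadjusted p-value under 0.05 there were 22 of the 52 (42.3%), 16 of them lower. Among all 11766 genes tested there were 2973 (25.3%), 1349 of them lower. With total counts alone the median was -0.02 against 0.15 for all genes, and with GC correction it was -0.12.

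The 3 activated genes called higher were Tfam, which maintains mitochondrial DNA (log2 fold change 0.86, limma adjusted p = 0.0215), Paics, an enzyme of purine synthesis (0.58, 0.0464), and Ddx21, a nucleolar helicase (0.57, 0.0431). None of the 3 was called with GC correction, under which no activated gene was called higher. The same was true without BcorΔE9-10 library 2 and without BcorWT library 1. The activated genes called lower were Hspd1, a mitochondrial chaperone (-0.58, limma adjusted p = 0.00686), and Pkm, a glycolytic enzyme (-0.35, 0.0352). Hspd1 kept its call in 15 of 16 alternative fits and Pkm in 9. The most abundant genes of the list barely differed, with log2 fold changes of -0.04 for Ran, a nuclear transport GTPase, -0.07 for Eif5a, a translation factor, and -0.02 for Ncl, the nucleolar protein nucleolin. CACGTG was found in the promoter window of 16 of 48 matched activated genes (33.3%) and of 3 of 11 matched repressed genes (27.3%).

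Of 14 genes that Myc is known to repress, 11 were tested and limma called 0, at a background of 10.1%. The median log2 fold change was 0.07. At an unadjusted p-value under 0.05 there were 5 (45.5%), 3 of them lower, against 25.3% of all genes. The edgeR and DESeq2 tests each called 2 of them, and 1319 and 1280 of all 11766 genes. The most abundant were Btg1 at 0.31, Cebpa, a driver of granulocyte fate, at -0.34, and Btg2 at -0.58, with limma adjusted p-values of 0.179, 0.166 and 0.0662. Gadd45g, a stress-response gene named after its values were seen, was at -0.74 (limma adjusted p = 0.0508), with 632 and 291 counts in the BcorWT libraries. Gadd45g and Btg2 were the 2 genes called by edgeR and by DESeq2. Of the 16 alternative fits, 10 called Gadd45g and 6 called Btg2.

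Proliferation markers did not move in a single direction. Of 22 genes, all tested, 4 were called higher (Bub1, Aurkb, Pcna and Mcm4) and 3 lower (Plk1, Mki67 and Birc5), with a median of -0.05. These were 18.2% and 13.6% of the list, at a background of 6.02% and 4.09%. Pcna, the sliding clamp of DNA replication, was at 0.67 (limma adjusted p = 0.00359), and Mki67, the antigen of cycling cells, at -0.54 (limma adjusted p = 0.00700). The calls of Pcna and Mki67 held in all 16 alternative fits. Bub1, Aurkb and Plk1 each lost theirs in 1, a fit that leaves 1 BcorWT library. Mcm4 lost its call in 3, among them both fits with GC correction, and Birc5 in 4, among them total counts alone. These genes kept their sign, with values from 0.18 to 0.89 for Mcm4 and 0.76 to 2.06 for Bub1. Ccnb1 and Rrm2, not called as reported, each gained a call in 1 fit.

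**Figure D4:**
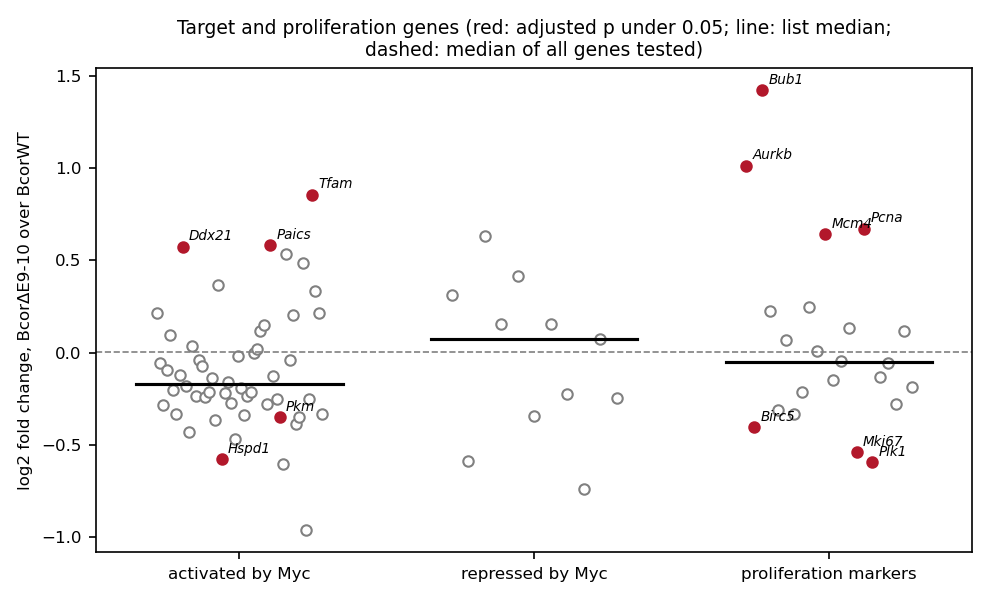
Log2 fold change of BcorΔE9-10 over BcorWT for each tested gene that Myc is known to activate (52) or repress (11) and for 22 proliferation markers; red points passed an adjusted p-value under 0.05, solid lines are list medians and the dashed line is the median of all genes. Called genes lie on both sides of 0 among the activated genes and the proliferation markers.

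The genes whose pattern over the 5 libraries was most like that of Myc were found by the root mean square difference of centred log2 CPM, among 6766 named genes whose log2 CPM averaged at least 3. The nearest were Acat1 (0.22), an enzyme of ketone and isoleucine metabolism, and Fbxl14 (0.27), an F-box protein of ubiquitin ligases. They were followed by Ssbp1 (0.29), a DNA-binding protein of mitochondria, Nup107 (0.30), a nuclear pore subunit, and Abt1 (0.30), a nucleolar factor. All 5 were higher in BcorΔE9-10, with log2 fold changes from 1.78 to 2.17. Myc was higher in library 2 than in library 3 of BcorΔE9-10, at 1.25 and 0.50 from its mean, and Acat1 was at 1.02 and 0.78. The choice of these genes used the values given, so they are a description.

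The calls of Myc, Mlx and Mxd1 were examined under 16 alternative fits, which changed the test, the scaling, the filter, the weights, the depth or the libraries. Each kept its direction and its call in all of them. The log2 fold change ran from 1.76 to 2.50 for Myc, from 0.92 to 1.73 for Mlx and from -0.75 to -0.53 for Mxd1.

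**Figure D5:**
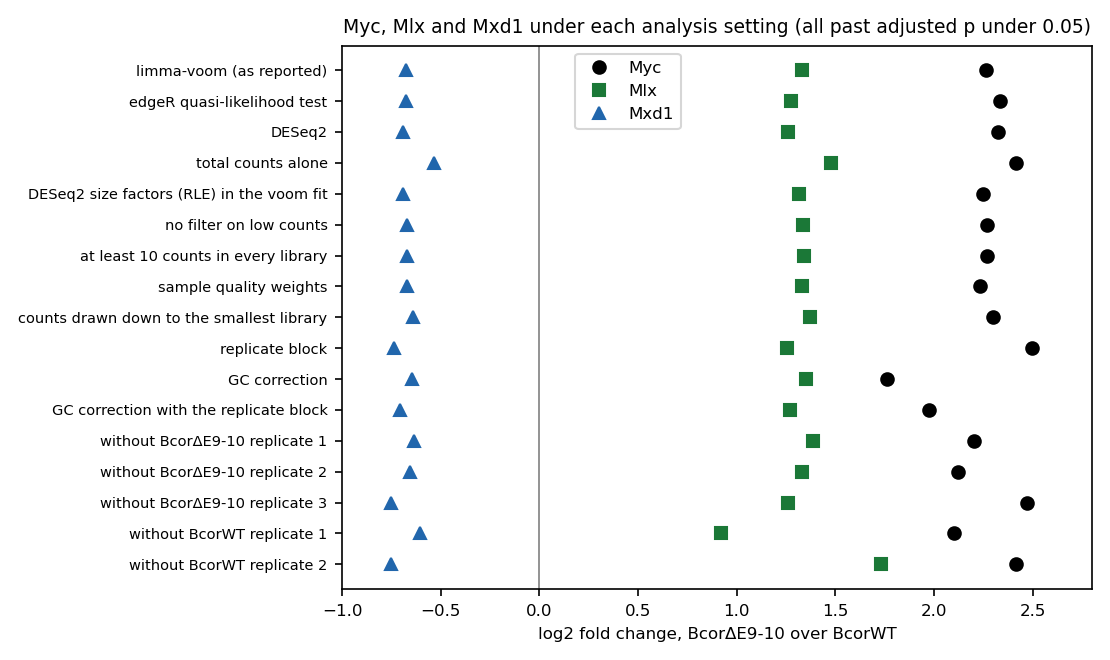
Log2 fold change of BcorΔE9-10 over BcorWT for Myc (circles), Mlx (squares) and Mxd1 (triangles) in the reported fit and in 16 alternatives, listed on the vertical axis. Myc stays between 1.76 and 2.50, Mlx between 0.92 and 1.73 and Mxd1 between -0.75 and -0.53.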

How the data were processed

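KL cells were profiled by Quant-seq in 5 libraries. After quality filtering and trimming of reads, the authors used HISAT2 for alignment (build mm10) and Subread (version 1.5.0-p3) for counting, and deposited raw counts with a column for each library. The strand and multi-mapping settings are not given in the sources used here. Column names were matched to samples through the sample descriptions. Symbols were found for 52403 of 52550 genes in GENCODE M21, of which the coordinates were taken from the count table. Genes were filtered by the filterByExpr function (edgeR 4.0.16), at a minimum count of 10 and a minimum total of 15, which left 11766. They were scaled by TMM, transformed by voom and tested two-sided in limma 3.58.1 under R 4.3.3, limma being the tool that the study names. Alternatives included DESeq2 1.42.0 and the quasi-likelihood test of edgeR. Intervals for fold changes are at 95%, from the limma fit. Libraries of a group differed beyond sampling noise (chi-square per gene 6.01 to 11.6, where 1 is noise alone) and were kept apart. The labels do not say that each library was a separate mouse, so p-values measure the spread between these libraries. GC content was taken from the last 300 bases of the longest transcript, and a lowess trend (span 0.3) on it was removed from each library as an alternative. Named were the 10 network genes, the called genes of the related lists, the largest called changes and 3 most abundant genes of the target lists, and the 5 genes nearest to Myc, and other genes of these lists were named after their values were seen. The members and lists were chosen with earlier results of these data known and from general knowledge of Myc biology.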

Additional observations from a re-analysis of the deposited data

How the results depend on the processing

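The count of network genes called was 3 in the reported fit and 3 or 4 in every alternative, Mxi1 being added with total counts alone and Mxd4 without BcorWT library 2. The count of all genes called was 1189, and 558 to 1200 across the fits without 1 library, the lowest without BcorWT library 1, which leave fewer samples. Fits with 1 BcorWT library assume that it varies like the other group. With total counts alone 86.0% of called genes were higher, against 59.5%.

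Activated genes called higher, 3 as reported, were 1 with sample quality weights, 0 with GC correction, 1 with GC correction and the replicate block, and 0 to 4 without 1 library. Activated genes called lower, 2 as reported, were 1 with total counts alone, 3 in both fits with the replicate block and 1 to 2 without 1 library. Called partners, targets of Mlx and cofactors, 2 as reported, were 3 in both fits with GC correction and 2 in every other alternative. Repressed genes called, 0 as reported, were 2 with edgeR, DESeq2, no filter, and the replicate block with or without GC correction, 1 with total counts alone, DESeq2 size factors, at least 10 counts in every library, sample quality weights and counts drawn down, and 0 to 2 without 1 library. The causes were not tested.

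Among single network genes 6 of 128 values changed sign and 2 gained a call. Max, at -0.09 with no call, was 0.056 with total counts alone and -0.215 to 0.04 without 1 library, positive without BcorWT library 1. Mxd3, at -0.10, was 0.047 with total counts alone, 0.021 with GC correction and -0.41 to 0.199 without 1 library, positive without BcorWT library 2. Mxd4, at -0.17, was -0.494 to 0.159 without 1 library, positive without BcorWT library 1. None of the 6 values that changed sign was called.

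Replicate numbers join the groups in 2 pairs. Within them, departures from the group mean had correlations of 0.057 and 0.067 over genes, so the numbers were not taken to pair the libraries. A fit with the replicate block called 1454 genes, and in it Myc was at 2.50, Mlx at 1.25 and Mxd1 at -0.74. The replicate block called the same network genes, 3 in all. Depth limits what can be said of Mycn, Mycl, Pvt1 and Arrdc4, with at most 27 counts per library.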
